A study of Xenopus tropicalis with 45 samples.

Results

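The tissues compared here are the animal cap (AC), which holds the presumptive ectoderm, and the vegetal mass (VG), which holds the presumptive endoderm, of wildtype *Xenopus tropicalis* embryos at the early gastrula stage (st10.5). Both come from the water controls of the experiment with the HDAC inhibitor valproic acid (VPA). The comparison takes 4 of the 16 RNA-seq libraries and of the 45 samples of the series, 2 replicates per tissue, and covers all 28850 genes of the count tables. Embryos made by in vitro fertilization were placed at the 4-cell stage in diluted Ringer's solution with 10 mM VPA or the same volume of water, and explants were cut at the late blastula stage and cultured to st10.5. Every library is poly(A) RNA from explants of embryos with no genetic change. The titles of the 4 libraries name water, while their treatment field calls them untreated. Nothing in the sources used here says how many embryos an explant pool held. The marginal zone between the tissues was not sampled on its own.

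The early *Xenopus* embryo is divided along its animal-vegetal axis. Vegetal cells inherit maternal RNAs such as vegt, and Nodal signals made there drive Mix, Sox17, Gata and Foxa transcription factors that specify endoderm. Animal cells form ectoderm under maternal Foxi2 and Sox3 and zygotic Tfap2, Grhl, Dlx and Foxi factors, with BMP signals favouring epidermis. The organizer, which secretes antagonists of BMP, Wnt and Nodal, forms in the dorsal marginal zone. Germ plasm, the maternal material that sets aside germ cells, lies at the vegetal pole.

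The libraries held 21575694 and 23195206 counts in AC and 20673156 and 23465689 counts in VG, of which ribosomal RNA genes took from 3.05% to 4.38%. Log CPM values correlated between replicates at r = 0.970 in AC and 0.960 in VG across 15166 genes, and between tissues at r = 0.872 to 0.895. These correlations are across genes, which are not independent. Of the 15166 genes with enough counts to be tested, 918 (6.05%) were called higher in AC and 1348 (8.89%) higher in VG by edgeR's quasi-likelihood test. Here and below, a gene was called where its p, adjusted by the Benjamini-Hochberg method over all tested genes, was under 0.05 and the tissues differed more than 2-fold. Standard errors are the log2 fold change divided by the square root of the F statistic. The median log2 fold change of AC over VG was -0.02 over all tested genes, 1.91 over the genes called higher in AC and -2.27 over those called higher in VG. The count of calls was 2266 in all and fell to 1173 without AC replicate 1 and to 1449 without AC replicate 2. In such a fit the single library left in a tissue is taken to vary as the other groups do. It has no replicate block, so that library is set against both replicates of the other tissue. Lost calls can therefore also reflect this imbalance of replicates. A total of 1009 genes, 392 higher in AC and 617 higher in VG, were called without each of the 4 libraries in turn.

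**Figure D1:**
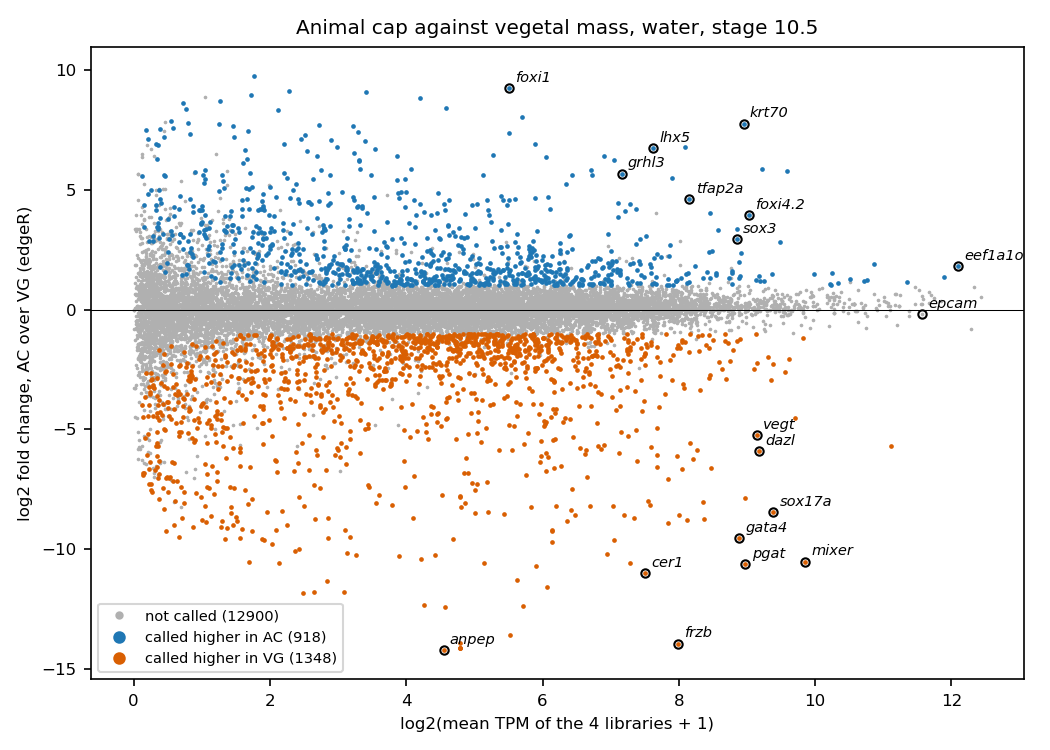
Each point is 1 of the 15166 tested genes, by its mean level in the 4 water libraries (x axis, log2 of mean TPM plus 1) and its log2 fold change of AC over VG (y axis, edgeR). The genes called higher in VG (1348) reach larger fold changes than the genes called higher in AC (918), and named genes are circled. Fitted fold changes of genes at or near 0 counts in a tissue, such as anpep and frzb, depend on the prior count and are no bounds.

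Most called genes were detected in both tissues. Levels are given in TPM, which are corrected for depth and gene length, so that genes can be compared with each other. Of the 737 genes called higher in AC with at least 5 TPM there, 83 (11.3%) had a mean under 1 TPM in VG and 492 had 5 TPM or more in VG. Of the 1060 genes called higher in VG with at least 5 TPM there, 168 (15.8%) had a mean under 1 TPM in AC and 626 had 5 TPM or more. Levels were 0 TPM in both AC libraries for 28 of these VG genes, and in both VG libraries for 3 of the AC genes. More than 8-fold differences were found for 275 genes higher in AC and 506 higher in VG. In bulk explants, fewer cells of a type and less RNA per cell cannot be told apart.

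Nearly all transcription factors and signals of the endoderm list were higher in VG. Of 37 listed endoderm regulators in the files, 33 could be tested and 32 were called higher in VG, none higher in AC, with a median log2 fold change of -8.23 (-8.19 with genes at 0 in AC set to the lower bound given below). Over all tested genes, 8.89% were called higher in VG and 6.05% higher in AC. The summed level of the list was 90.6 and 129.6 TPM in AC and 11692 and 10444 TPM in VG. The 4 members not tested (a2m, ctrb1, sox18, ttr) were too low, and hnf4a, a later liver and gut factor, was not called (0.59 and 0.8 TPM in AC and 0.49 and 0.51 TPM in VG).

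The maternal T-box factor vegt, which starts the endoderm program, had 1466 and 732 TPM in VG and 28.3 and 28.1 TPM in AC (log2 fold change -5.23 ± 0.57, adjusted p = 0.00173). The VG replicates differed about 2-fold from each other and the AC replicates were close, and the tissues did not overlap. The homeodomain factor mixer, a target of Nodal signals, was the most abundant regulator of the list with 1733 and 1965 TPM in VG and 0.97 and 1.42 TPM in AC (log2 fold change -10.52 ± 0.23, adjusted p = 1.52e-05). Its relative mix1 had 587 and 622 TPM in VG and 3.01 and 17.1 TPM in AC (log2 fold change -5.86 ± 0.73, adjusted p = 0.00263). Both replicates of VG exceeded both replicates of AC more than 20-fold for each of these genes.

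The Sox17 factors, the defining HMG-box factors of endoderm, were higher in VG at all 3 loci. For sox17a the values were 1324 and 1338 TPM in VG and 2.21 and 5.08 TPM in AC (log2 fold change -8.45 ± 0.98, adjusted p = 0.00206). For sox17b.1 they were 733 and 426 TPM in VG and 5.01 and 9.73 TPM in AC (log2 fold change -6.26 ± 0.81, adjusted p = 0.00299), and for sox17b.2 586 and 219 TPM in VG and 4.63 and 7.06 TPM in AC (log2 fold change -6.06 ± 0.93, adjusted p = 0.00582). Without AC replicate 1 the adjusted p of sox17b.2 was 0.0574. The 3 genes are neighbours on chromosome 6 of the v10.0 assembly, between 115156636 and 115183876, and are close paralogs. Their estimated counts were not whole numbers (beyond 0.005) in at least 1 water library, since RSEM shares out reads that match several copies, so the split among them is uncertain.

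All 5 tested zinc finger factors of the Gata family were higher in VG. The endodermal member gata4 had 1002 and 883 TPM in VG and 0.97 and 1.0 TPM in AC (log2 fold change -9.53 ± 0.47, adjusted p = 0.000111), while gata5 and gata6 had log2 fold changes of -6.11 ± 0.85 and -5.01 ± 0.33 (adjusted p = 0.00406 and 0.000329). The pioneer forkhead factors foxa1, foxa2 and foxa4 had log2 fold changes of -8.19 ± 0.94, -8.53 ± 0.57 and -8.74 ± 0.84 (adjusted p = 0.00204, 0.000369 and 0.00111). At the level of single libraries, foxa4 had 772 and 538 TPM in VG and 0.32 and 2.62 TPM in AC. The later gut and liver regulator hhex was already higher in VG, with 84.1 and 255 TPM in VG and 0.5 and 0.44 TPM in AC. Among the other members, sox7, osr1, osr2, eomes and sebox were also called higher in VG. The head regulator otx2 had 207 and 585 TPM in VG and 21.4 and 22.8 TPM in AC (log2 fold change -4.06 ± 0.72, adjusted p = 0.00973). The Siamois-type homeobox gene sia2, with no count in AC, was at least 26.6-fold higher in VG (1.29 and 5.49 TPM in VG and 0 and 0 TPM in AC; adjusted p = 0.0159). The calls of both were lost without AC replicate 1 (adjusted p = 0.0783 and 0.0706) and without AC replicate 2 (0.0702 and 0.0667).

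Nodal ligands, the secreted TGF-beta signals that induce mesendoderm, were close to absent from AC. For nodal the libraries held 129.7 and 62.9 TPM in VG and 0.06 and 0 TPM in AC, and with 1 count in AC against 3127 in VG the ratio was 2940.4-fold (95% counting interval 527 to 116177). For nodal2 they held 126 and 137 TPM in VG and 0 and 0.07 TPM in AC, a ratio of 3663-fold (95% counting interval 657 to 144701). The remaining members rested on as few AC counts: nodal6 differed 1464-fold (95% counting interval 262 to 57865), nodal1 464-fold (95% counting interval 128 to 3837) and nodal5, at 0 in AC, was at least 412-fold higher in VG. Such lower bounds set AC at 3 counts over its 2 libraries, and the intervals cover counting error only. The adjusted p was 0.00106 for nodal, 0.00108 for nodal1, 9.23e-05 for nodal2, 0.00402 for nodal5 and 0.000369 for nodal6, and nodal3.1 was called as well (log2 fold change -6.96 ± 1.02, adjusted p = 0.00483). The genes nodal3.1, nodal2 and nodal1 lie on chromosome 3 between 132081088 and 132125253, nodal5 and nodal6 between 130796423 and 130837232, and nodal itself on chromosome 7. Estimated counts of nodal5 and nodal3.1 were partly fractional, so reads may be split with near-identical copies.

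The mix and bix genes, whose products act with Nodal effectors, form a run on chromosome 5 from mixer at 8042592 to bix1.1, which ends at 8106312. All 4 genes of the run in the list were higher in VG. No AC library had a count for bix1.1, while VG held 2786 counts (99.3 and 80.1 TPM in VG and 0 and 0 TPM in AC), at least 873-fold higher in VG (adjusted p = 0.000584). For bix1.2 the values were 382 and 262 TPM in VG and 0.2 and 1.31 TPM in AC (log2 fold change -8.69 ± 0.72, adjusted p = 0.000648). All 4 had fractional counts, and the levels of the single copies are uncertain to that extent.

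Ectoderm regulators were called in both directions. All 40 ectoderm regulators in the files were tested, of which 20 were called higher in AC, 8 higher in VG and 12 neither way, with a median log2 fold change of 1.55. Shares over all tested genes were 6.05% higher in AC and 8.89% higher in VG. The summed level was 7752 and 6742 TPM in AC and 3188 and 2999.7 TPM in VG.

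The most abundant member in AC, foxi4.2, a forkhead factor of the early epidermis, had 1029 and 926 TPM in AC and 82.3 and 49.9 TPM in VG (log2 fold change 3.95 ± 0.52, adjusted p = 0.00312). The maternal and zygotic neural and pluripotency factor sox3 had 911 and 709 TPM in AC and 109.8 and 113 TPM in VG (log2 fold change 2.94 ± 0.19, adjusted p = 0.000326), and its relative sox2 had 319 and 282 TPM in AC and 50.4 and 32.2 TPM in VG (log2 fold change 2.93 ± 0.42, adjusted p = 0.00454). The tissues did not overlap for any of these genes, and their lowest level in VG, of sox2, was still 32.2 TPM. For foxi2, the maternal activator of the ectoderm program, the difference was smaller, with 165 and 218 TPM in AC and 60.2 and 57.8 TPM in VG (log2 fold change 1.76 ± 0.21, adjusted p = 0.00217).

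Several factors of the epidermis that were called higher in AC had larger fold changes than foxi2. Other members of the list, among them gata2, gata3, msx2 and tfap2e, were higher in VG and are given below. The AP-2 factors tfap2a and tfap2c, regulators of epidermis and neural crest, had 642 and 449 TPM in AC and 14.8 and 29.2 TPM in VG (log2 fold change 4.62 ± 0.38, adjusted p = 0.000657) and 688 and 626 TPM in AC and 35.5 and 53.0 TPM in VG (log2 fold change 4.03 ± 0.22, adjusted p = 0.00018). The Grainyhead-like factor grhl3, which drives epidermal differentiation, had 282 and 274 TPM in AC and 4.83 and 6.72 TPM in VG (log2 fold change 5.67 ± 0.27, adjusted p = 0.000107). Both VG values of each gene were more than 8-fold below both AC values. The LIM homeobox gene lhx5 had 468 and 307 TPM in AC and 4.08 and 3.71 TPM in VG (log2 fold change 6.72 ± 0.48, adjusted p = 0.000428). The Distal-less genes dlx5 and dlx3, active in non-neural ectoderm, had log2 fold changes of 5.61 ± 0.48 and 6.78 ± 0.92 (adjusted p = 0.000798 and 0.00367). The epidermal stem cell factor tp63 was low, with 3.68 and 4.61 TPM in AC and 0.09 and 0.25 TPM in VG (log2 fold change 4.62 ± 0.73, adjusted p = 0.00656). Other members called higher in AC were grhl1, kctd15, klf5, irx2 and sox11.

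Replicates of AC differed for foxi1, which specifies ionocytes in the epidermis, with 138 and 39.4 TPM in AC and 0.32 and 0 TPM in VG (log2 fold change 9.22 ± 1.65, adjusted p = 0.0102). Every AC value was above every VG value, but the level in AC replicate 1 was more than 3 times that in replicate 2, and without VG replicate 2 the adjusted p was 0.0584. The related foxi4.1 had 2.79 and 12 TPM in AC and 0.1 and 0.22 TPM in VG (log2 fold change 5.49, adjusted p = 0.0274). Its call was lost without AC replicate 2 (adjusted p = 0.138) and without either VG library (0.134 and 0.0928). The Hes family repressor hes4 had 356 and 281 TPM in AC and 69.9 and 83.7 TPM in VG (log2 fold change 2.14 ± 0.38, adjusted p = 0.00956) and the homeobox gene dlx6 6.66 and 3.47 TPM in AC and 1.07 and 0.78 TPM in VG (log2 fold change 2.53 ± 0.60, adjusted p = 0.0268). The calls of hes4 and dlx6 were lost without AC replicate 1 (0.0581 and 0.151) and VG replicate 1 (0.0607 and 0.0862), and that of dlx6 also without VG replicate 2 (0.126).

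**Figure D2:**
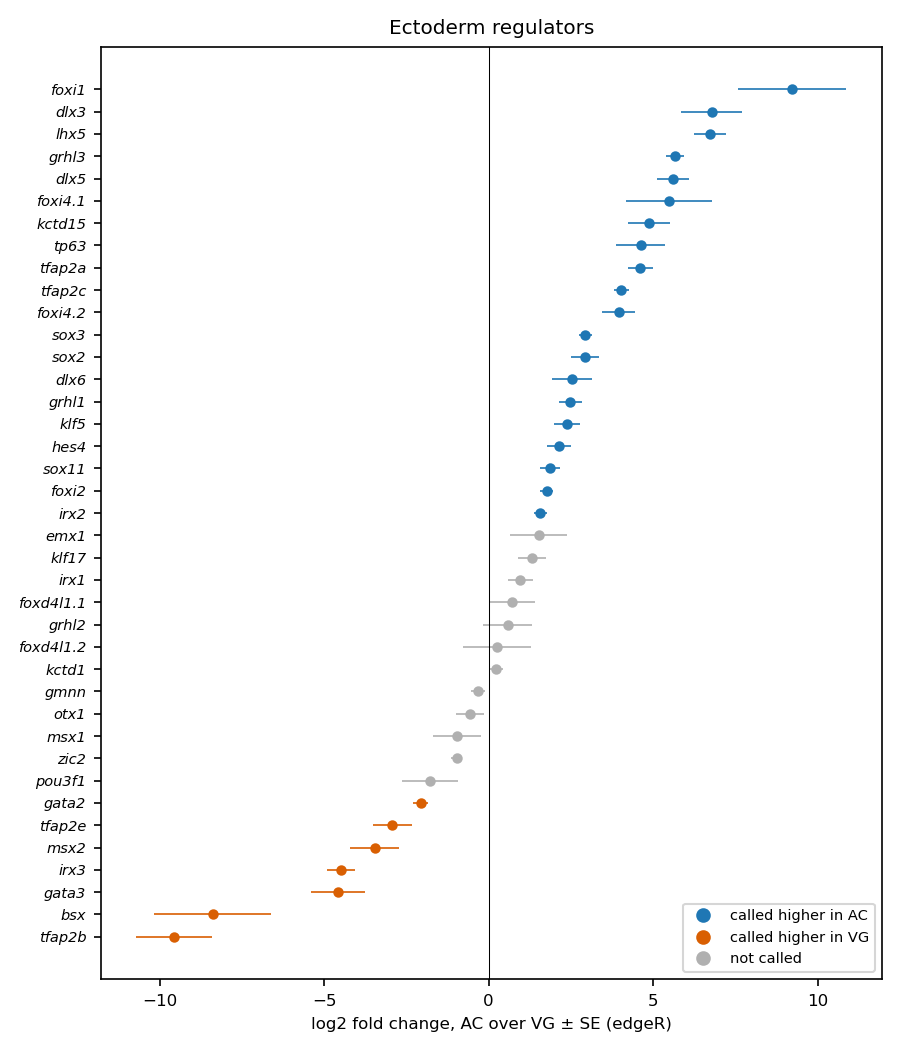
The 39 ectoderm regulators named here are ordered by their log2 fold change of AC over VG (x axis, with SE from edgeR), with 20 called higher in AC, 7 called higher in VG and 12 not called. The fold changes run from tfap2b, at 0 in AC, to foxi1. The SE is widest for foxi1 and bsx, which have few counts or unequal replicates. Fitted values of tfap2b and bsx, at or near 0 in AC, are no bounds.

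The members of the ectoderm list that were higher in VG came from several families. The Iroquois homeobox gene irx3, known from the neural plate, had 135 and 129.6 TPM in VG and 5.87 and 5.38 TPM in AC (log2 fold change -4.48 ± 0.42, adjusted p = 0.00104). The GATA factors gata2 and gata3, which act in ventral ectoderm and blood, had 248 and 319 TPM in VG and 56.1 and 72.4 TPM in AC (log2 fold change -2.06 ± 0.23, adjusted p = 0.00196) and 59.5 and 28.6 TPM in VG and 0.69 and 2.94 TPM in AC (log2 fold change -4.58 ± 0.83, adjusted p = 0.0105). The BMP target msx2 had 55.6 and 39.5 TPM in VG and 5.57 and 2.57 TPM in AC (log2 fold change -3.46 ± 0.74, adjusted p = 0.0194). For irx3 and gata2 the replicates lay close together, and the AC values did not come near those of VG.

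A further AP-2 gene, tfap2e, had 16.1 and 24.8 TPM in VG and 1.09 and 4.06 TPM in AC (log2 fold change -2.93 ± 0.59, adjusted p = 0.016), and tfap2b, with 0 counts in AC, was at least 55.8-fold higher in VG (1.86 and 5.9 TPM in VG and 0 and 0 TPM in AC; adjusted p = 0.00396). This is the opposite direction to tfap2a and tfap2c. The homeobox gene bsx had a far higher level in VG replicate 2 than in replicate 1 (0.75 and 13.3 TPM in VG and 0.03 and 0 TPM in AC, adjusted p = 0.0184). Without AC replicate 1, gata3, msx2, tfap2e and bsx had adjusted p values of 0.0585, 0.0614, 0.0559 and 0.0944. Without AC replicate 2, msx2 and bsx had 0.105 and 0.11; msx2 had 0.0703 without VG replicate 1 and tfap2e 0.0577 without VG replicate 2.

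Of the 12 members not called, zic2 had an adjusted p of 0.00914 but a fold change of 1.97, under the threshold (87.1 and 104 TPM in AC and 204 and 189 TPM in VG). The Krüppel-like factor klf17 had 747 and 478 TPM in AC and 309 and 209 TPM in VG (log2 fold change 1.32 ± 0.42, adjusted p = 0.0722), every AC value above every VG value, and was called under some alternatives. Other members not called were irx1, with 97.4 and 67.3 TPM in AC and 29.7 and 61.3 TPM in VG, and msx1, with 18 and 43.9 TPM in AC and 70.6 and 52.5 TPM in VG. The replication inhibitor gmnn (Geminin) had 737 and 849 TPM in AC and 1163 and 931 TPM in VG and otx1 149 and 78.3 TPM in AC and 144 and 218 TPM in VG. Levels of foxd4l1.1 and kctd1 overlapped between tissues. The members grhl2, emx1, pou3f1 and foxd4l1.2 were at or below 2.22 TPM in every water library.

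Most epithelial structure genes, like most tested genes, were not called, and those called were higher in AC. Of 25 tested members, 6 were called higher in AC and none higher in VG, beside 6.05% and 8.89% of all tested genes, and the median log2 fold change was 0.18 beside -0.02 over all genes. The adhesion molecule epcam had 2925 and 2545 TPM in AC and 3371 and 3241 TPM in VG, with an adjusted p of 0.404, and claudin cldn7 had 2688 and 2378 TPM in AC and 2824 and 2735 TPM in VG (adjusted p = 0.847). Both genes were abundant in every library. Simple-epithelial keratins krt8.1 and krt18.1 had 718 and 669.5 TPM in AC and 1161 and 1333 TPM in VG and 769 and 899 TPM in AC and 1170.2 and 1165 TPM in VG, with adjusted p values of 0.0619 and 0.237. The called members included surface and epidermal genes. The keratin krt70 had 1355 and 608 TPM in AC and 4.19 and 5.54 TPM in VG (log2 fold change 7.76 ± 0.52, adjusted p = 0.000369), the uroplakin upk3b 149 and 83.1 TPM in AC and 1.75 and 0.29 TPM in VG (log2 fold change 6.92 ± 0.79, adjusted p = 0.00199) and E-cadherin, cdh1, 42.1 and 47.5 TPM in AC and 4.51 and 6.88 TPM in VG (log2 fold change 3.06 ± 0.30, adjusted p = 0.00118). The splicing regulator esrp1, typical of epithelia, was also higher in AC (log2 fold change 1.58 ± 0.23, adjusted p = 0.00505). For ovol1, at 0 in VG, AC was at least 18-fold higher, but its AC levels were only 0.67 and 1.21 TPM in AC and 0 and 0 TPM in VG. The desmosome gene dsp was 2.07-fold higher in AC (adjusted p = 0.00341), and its log2 fold change of 0.96 without VG replicate 1 was under the threshold.

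**Figure D3:**
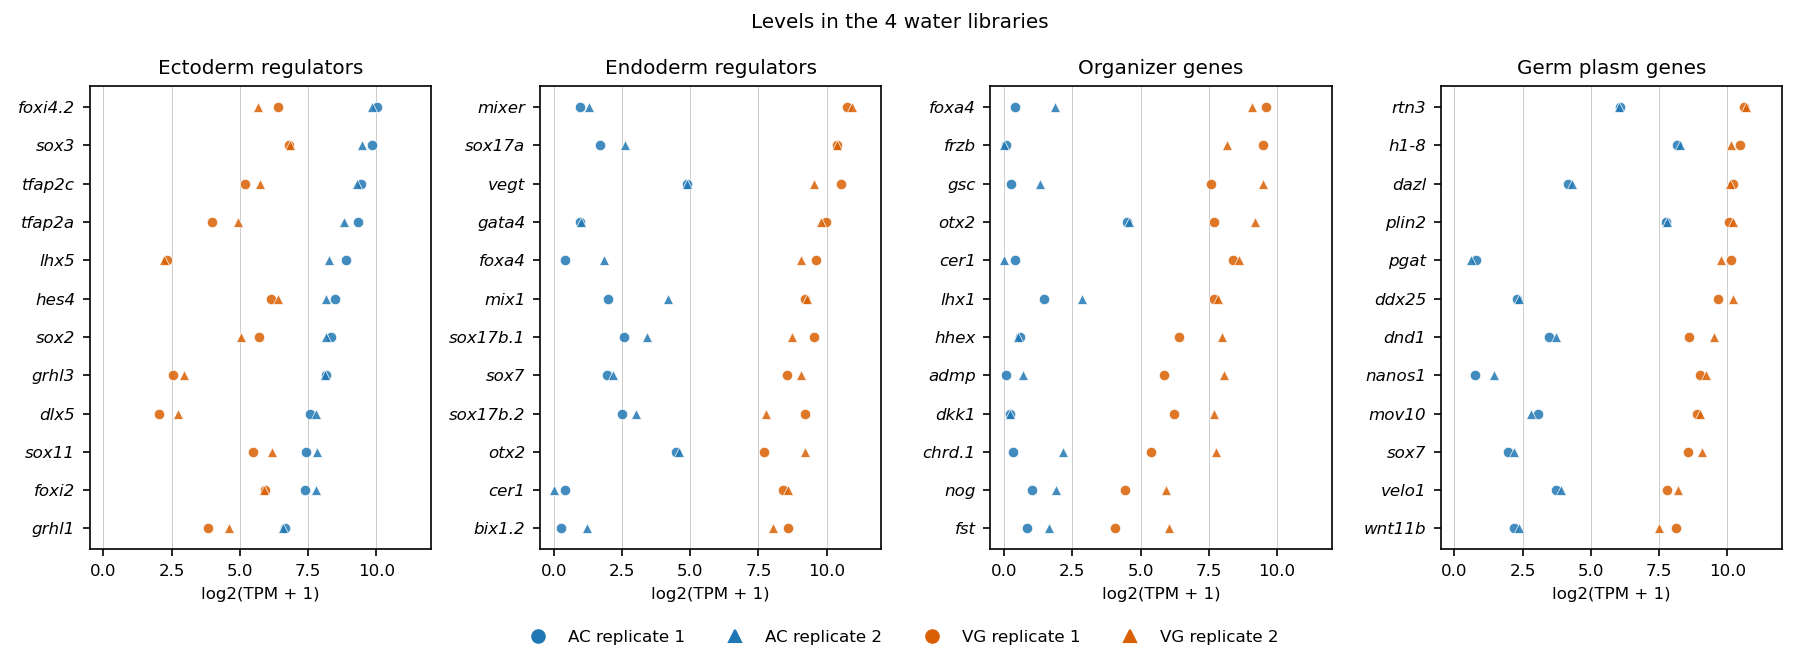
Levels (x axis, log2 of TPM plus 1) of the 12 most abundant called members named here of 4 lists in each of the 4 water libraries, with AC in blue, VG in orange, replicate 1 as circles and replicate 2 as triangles. The ectoderm panel shows genes higher in AC, whose VG levels stay well above 0 for most, and the other panels show genes higher in VG; gsc, chrd.1 and otx2 show the spread between VG replicates.

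Organizer genes were mostly higher in VG. Of 20 organizer genes, 16 were called higher in VG and 1, sfrp2, higher in AC, with a median log2 fold change of -6.48. Among all tested genes, 8.89% were called higher in VG and 6.05% higher in AC. The lists overlap, so their counts are not independent. Among others, calls of foxa4, otx2, hhex, cer1 and nodal3.1 count in both the organizer and endoderm lists. The call of sox7 counts in the endoderm and germ plasm lists. Pathway lists below recount some of these calls. Nodal genes count in the endoderm and Nodal lists. Both dkk1 and frzb count in the organizer and Wnt lists, and admp in the organizer and BMP lists. The summed level of the organizer genes was 583 and 284 TPM in AC and 3131 and 4319 TPM in VG. The Wnt antagonist frzb was nearly absent from AC, with 723 and 284 TPM in VG and 0.05 and 0 TPM in AC, a ratio of 18319-fold (95% counting interval 3287 to 723581) on 1 AC count (adjusted p = 0.000712). The head inducer cer1, an antagonist of Nodal, BMP and Wnt, had 335 and 386 TPM in VG and 0.33 and 0 TPM in AC (log2 fold change -10.99 ± 0.69, adjusted p = 0.000307). The Wnt antagonist dkk1 had 73.2 and 205 TPM in VG and 0.15 and 0.15 TPM in AC (log2 fold change -9.69 ± 0.97, adjusted p = 0.00125). The homeobox gene gsc, the classic organizer marker, had 188 and 722 TPM in VG and 0.2 and 1.51 TPM in AC (log2 fold change -8.92 ± 1.21, adjusted p = 0.00361). The BMP antagonist chrd.1 had 40.5 and 218 TPM in VG and 0.26 and 3.51 TPM in AC (log2 fold change -6.01 ± 1.38, adjusted p = 0.0248).

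VG replicates differed for several of these genes. The level in VG replicate 2 exceeded that in replicate 1 for 13 of the 16 organizer genes called higher in VG, by more than 2-fold for 10 of them, among them the BMP-like ligand admp (57.4 and 267 TPM in VG and 0.04 and 0.61 TPM in AC; log2 fold change -8.82 ± 1.16, adjusted p = 0.0032). The order was the reverse for frzb, by more than 2-fold, and for foxa4 among others, while the levels of cer1 in the replicates were close. Outside the list, wnt8a and ventx3.2 also had the reverse order, with 564 and 193 TPM in VG and 1.97 and 0.58 TPM in AC for wnt8a and 965 and 441 TPM in VG and 6.39 and 7.51 TPM in AC for ventx3.2. So did vegt, nodal and sox17b.2, while gata2, bmp2 and ventx2.1 had the higher level in VG replicate 2. This difference between 2 libraries of 1 group has no test. The BMP antagonists nog and fst were called (log2 fold change -4.32 ± 0.84, adjusted p = 0.0136 and log2 fold change -4.68 ± 0.81, adjusted p = 0.00876). The call of nog was lost without AC replicate 1 (adjusted p = 0.0945) or 2 (0.0545), that of fst without AC replicate 1 (0.069) and that of chrd.1 without AC replicate 1 (0.0978) or VG replicate 2 (0.0742). The notochord gene not was not called, with 302 and 107 TPM in AC and 239 and 233 TPM in VG (adjusted p = 0.922), and shh and crim1 stayed at or under 1.66 TPM. The Wnt modulator sfrp2 had 252 and 132 TPM in AC and 45.6 and 61.8 TPM in VG (log2 fold change 1.94 ± 0.34, adjusted p = 0.00915), and its adjusted p without VG replicate 1 was 0.0627.

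Of 37 tested germ plasm genes, 16 were called higher in VG, 2 higher in AC and 19 neither way (median log2 fold change -0.73), beside 8.89% and 6.05% of all tested genes higher in VG and in AC, and the list summed to 1815 and 1906 TPM in AC and 10919 and 11803 TPM in VG. The RNA-binding protein dazl, needed for germ cells, had 1183 and 1083 TPM in VG and 16.8 and 18.8 TPM in AC (log2 fold change -5.91 ± 0.23, adjusted p = 7.33e-05). The translational repressor nanos1 had 515 and 596 TPM in VG and 0.7 and 1.70 TPM in AC (log2 fold change -8.76 ± 0.32, adjusted p = 6.26e-05). The germ plasm RNA pgat had 1131 and 877 TPM in VG and 0.71 and 0.51 TPM in AC (log2 fold change -10.62 ± 0.44, adjusted p = 7.33e-05) and the DEAD-box helicase ddx25 815 and 1180.5 TPM in VG and 3.86 and 4.16 TPM in AC (log2 fold change -7.88 ± 0.24, adjusted p = 4.83e-05). In every one the lowest VG value was more than 40 times the highest AC value.

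The protector of germ cell RNAs dnd1, the localised RNAs grip2, velo1, germes and sybu, and the membrane protein rtn3 (1571 and 1626 TPM in VG and 65.8 and 64.0 TPM in AC) were also higher in VG, with log2 fold changes of -5.56, -8.21, -4.19, -5.60, -6.51 and -4.53. All 16 calls held without each library in turn. Several general germline genes were not called. The helicase ddx4 had 58.4 and 54.4 TPM in AC and 67.0 and 50.2 TPM in VG (adjusted p = 0.986) and the Piwi protein piwil2 20.8 and 19.2 TPM in AC and 20.1 and 18.2 TPM in VG (adjusted p = 0.662). Among the members called higher in AC, the kinesin kif4a was 2.5-fold higher there. The call of kif4a was lost without AC replicate 2 (adjusted p = 0.0654) and VG replicate 1 (0.0676).

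Markers of mesoderm and the marginal zone were examined as signs of other cells in the explants. Of 42 genes in the files, 35 were tested, of which 15 were called higher in VG and none higher in AC (median log2 fold change -2.19). Shares over all tested genes were 8.89% higher in VG and 6.05% higher in AC. The list summed to 455 to 815 TPM in AC and 1478 to 2082 TPM in VG, and 4 members had 0 TPM in both AC libraries and 1 in both VG libraries. The pan-mesodermal T-box gene tbxt had 99.9 and 86.2 TPM in VG and 4.60 and 3.48 TPM in AC (log2 fold change -4.46 ± 0.85, adjusted p = 0.0128), and the ventrolateral ligand wnt8a was 193 TPM or more in VG (log2 fold change -8.16 ± 1.39, adjusted p = 0.00842). The presomitic factor msgn1 had 9.41 and 6.84 TPM in VG and 0.12 and 0 TPM in AC. The muscle factor myod1 was at or below 3.04 TPM in all 4 libraries. The part of mesodermal, organizer or germ plasm cells in the VG calls was not tested. Of the 15 calls, 6 (msgn1, mespb, wnt11b, lhx1, foxc1 and snai1) held without each library in turn. Without AC replicate 1 the adjusted p was 0.08 for tbxt and 0.0545 for wnt8a, and without AC replicate 2 0.0881 and 0.0621. In AC the most abundant members were mex3b (256 and 156 TPM in AC and 129 and 86.0 TPM in VG) and not, neither of which was called.

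**Figure D4:**
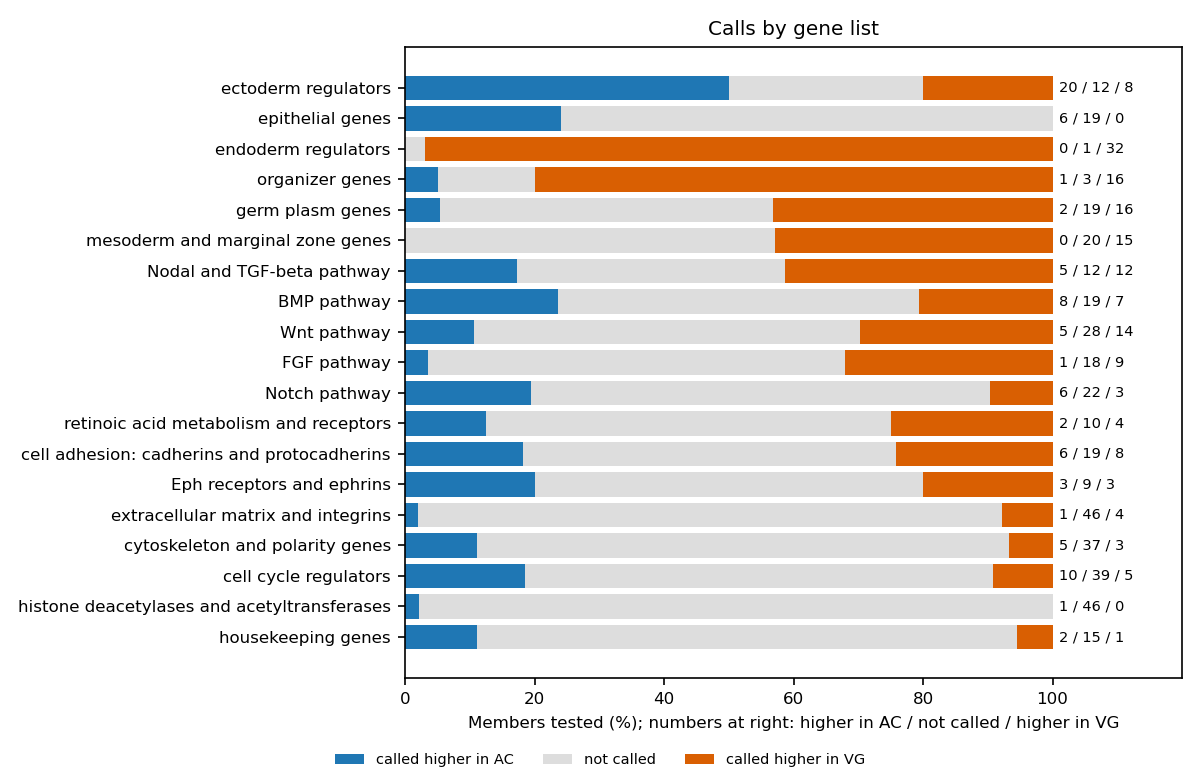
Each bar gives the share of the tested members of a list (x axis, %) called higher in AC (blue), not called (grey) and called higher in VG (orange), with the counts at the right. Endoderm regulators (32 of 33 higher in VG) and organizer genes (16 of 20), which share members, contrast with genes of histone acetylation (46 of 47 not called). Over all genes 6.05% were called higher in AC and 8.89% higher in VG.

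Ligands and co-receptors of TGF-beta signalling were called in both directions. In the Nodal and TGF-beta list 12 of 29 tested members were higher in VG and 5 higher in AC. Shares over all tested genes were 8.89% and 6.05%. Beside the Nodal genes, the maternal Vg1 gene gdf1 had 544 and 499 TPM in VG and 5.18 and 4.52 TPM in AC (log2 fold change -6.67 ± 0.37, adjusted p = 0.000164), and gdf3 had 319 and 272 TPM in VG and 4.02 and 10.49 TPM in AC (log2 fold change -5.29 ± 0.46, adjusted p = 0.00082). The Cripto co-receptors, which Nodal ligands need, went both ways. The gene tdgf1.3 had 297 and 254 TPM in AC and 15.9 and 18 TPM in VG (log2 fold change 4.11 ± 0.33, adjusted p = 0.000609), while tdgf1.1 was 2.14-fold higher in VG (adjusted p = 0.0193) and lost its call without any 1 of the 4 libraries (adjusted p of 0.119 and 0.0501 without AC replicates 1 and 2, 0.0847 and 0.0508 without VG replicates 1 and 2). The Nodal antagonist dand5 was higher in AC (log2 fold change 2.64 ± 0.31, adjusted p = 0.00213). The receptors acvr2a (49.6 and 49.9 TPM in AC and 35.8 and 40.9 TPM in VG), tgfbr1 (91.7 and 81.9 TPM in AC and 124 and 88.1 TPM in VG) and the effectors smad2 (51.0 and 67.1 TPM in AC and 65.1 and 97.1 TPM in VG) and foxh1 (30.4 and 59.0 TPM in AC and 32.9 and 56.2 TPM in VG) were not called.

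In the BMP pathway 8 of 34 tested members were higher in AC and 7 higher in VG, beside 6.05% and 8.89% of all genes. The ligand bmp7.2 had 636 and 509 TPM in AC and 145 and 94.2 TPM in VG (log2 fold change 2.38 ± 0.28, adjusted p = 0.00219), whereas bmp2 had 46.3 and 55.4 TPM in VG and 8.18 and 7.34 TPM in AC (log2 fold change -2.63 ± 0.28, adjusted p = 0.00164). The pseudoreceptor bambi, which is induced by BMP and blocks it, had 345 and 327 TPM in AC and 88.0 and 52.6 TPM in VG (log2 fold change 2.32 ± 0.32, adjusted p = 0.0038), and the protease bmp1, which cleaves Chordin, and the co-receptor rgma were 3.48-fold and 4.79-fold higher in AC (adjusted p = 0.00041 and 0.00717). The ventx homeobox genes, BMP targets that repress dorsal genes, also went both ways: ventx3.2 was higher in VG (log2 fold change -6.61 ± 0.94, adjusted p = 0.00444), and ventx2.1 and ventx2.2 had 479.5 and 528 TPM in AC and 175 and 183 TPM in VG and 863 and 679 TPM in AC and 360.1 and 341 TPM in VG. The calls of ventx2.1 and ventx2.2 in AC (2.96-fold and 2.32-fold) were lost without AC replicate 1 (adjusted p = 0.0895 and 0.104) and without either VG library (0.0922 and 0.0644 without replicate 1, 0.0902 and 0.0897 without replicate 2), and that of ventx2.1 also without AC replicate 2 (0.0805). These 2 genes had fractional counts.

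In the Wnt pathway 14 of 47 tested members were higher in VG and 5 higher in AC, beside 8.89% and 6.05% of all genes. The maternal ligand wnt11b, which acts in dorsal axis formation and gastrulation, had 274 and 179.8 TPM in VG and 3.55 and 4.15 TPM in AC (log2 fold change -5.82 ± 0.54, adjusted p = 0.000985), and wnt5a was higher in VG at a low level (5.23 and 6.92 TPM in VG and 0.81 and 1.0 TPM in AC; log2 fold change -2.66 ± 0.31, adjusted p = 0.00212). Receptors went both ways. The Frizzled gene fzd7 was 2.4-fold higher in VG (509 and 523 TPM in VG and 232 and 174 TPM in AC), and fzd4 and fzd10 were higher in AC (log2 fold change 4.16 ± 0.76, adjusted p = 0.0107 and log2 fold change 2.43 ± 0.30, adjusted p = 0.00258). Without VG replicate 1 the adjusted p was 0.054 for fzd4 and 0.0591 for fzd7, and without AC replicate 2 it was 0.0718 for fzd7. The transcriptional effector tcf7l1, a repressor in the absence of Wnt, had 285 and 306 TPM in AC and 62.6 and 106 TPM in VG (log2 fold change 1.90 ± 0.34, adjusted p = 0.00972; adjusted p = 0.0537 without AC replicate 1 and 0.0561 without VG replicate 1).

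In the FGF pathway 9 of 28 tested members were higher in VG and 1, the phosphatase dusp1, higher in AC (adjusted p of 0.0247, and of 0.123, 0.078 and 0.117 without AC replicate 1, VG replicate 1 and VG replicate 2). The transmembrane protein flrt3, a modulator of FGF signalling and adhesion, had 228 and 167 TPM in VG and 2.04 and 0.48 TPM in AC (log2 fold change -6.97 ± 1.08, adjusted p = 0.00594) and was the only call of the list to hold without each library in turn. The ligand fgf8 had 20.4 and 21.7 TPM in VG and 1.86 and 7.15 TPM in AC (log2 fold change -2.19 ± 0.56, adjusted p = 0.035), and its adjusted p was 0.0874, 0.106 and 0.089 without AC replicate 1, VG replicate 1 and VG replicate 2. Of 31 Notch pathway genes, 6 were higher in AC and 3 higher in VG. Beside this list and the FGF and retinoic acid lists, the shares over all tested genes were 6.05% in AC and 8.89% in VG. The Notch share in VG was near the latter. The feedback inhibitor nrarp had 188 and 173 TPM in AC and 50.4 and 59.8 TPM in VG (log2 fold change 1.79 ± 0.16, adjusted p = 0.000919) and the ligase mib1, which activates Delta ligands, 30.7 and 33.1 TPM in AC and 11.9 and 12.5 TPM in VG (log2 fold change 1.46 ± 0.15, adjusted p = 0.00137). Among 16 retinoic acid genes, 4 were higher in VG and 2 in AC. The synthesizing enzyme aldh1a2 had 211 and 272 TPM in VG and 55.0 and 70.5 TPM in AC (log2 fold change -1.87 ± 0.25, adjusted p = 0.0035) and the retinaldehyde reductase dhrs3, which acts against it, 215 and 133 TPM in VG and 11.6 and 8.57 TPM in AC (log2 fold change -4.04 ± 0.44, adjusted p = 0.00173), so enzymes of both directions were higher in VG.

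Adhesion molecules were called in both tissues. Of 33 tested cadherins and protocadherins, 8 were higher in VG and 6 higher in AC, beside 8.89% and 6.05% of all genes. Next to cdh1, the planar polarity cadherin celsr1 had 46.7 and 51.3 TPM in AC and 7.18 and 5.82 TPM in VG (log2 fold change 2.98 ± 0.21, adjusted p = 0.000428). In VG the paraxial protocadherin pcdh8.2, an adhesion regulator of gastrulation, had 291 and 196 TPM in VG and 0.36 and 0.04 TPM in AC (log2 fold change -10.19 ± 0.93, adjusted p = 0.000927), and the C-cadherin gene cdh3, the main maternal cadherin, was not called (463 and 483 TPM in AC and 494 and 563 TPM in VG; adjusted p = 0.738). Of 15 Eph receptors and ephrins, which sort and separate cells at tissue boundaries, 3 were higher in each tissue. The receptor epha4 and the ligand efnb2 were higher in VG, with 108 and 107 TPM in VG and 5.73 and 8.41 TPM in AC (log2 fold change -3.94 ± 0.36, adjusted p = 0.000963) and 389 and 282 TPM in VG and 24.4 and 21.3 TPM in AC (log2 fold change -3.81 ± 0.25, adjusted p = 0.000355). The receptor epha2 was higher in AC (91.7 and 95.1 TPM in AC and 20.1 and 28.9 TPM in VG; log2 fold change 2.01 ± 0.24, adjusted p = 0.00215). Of 51 extracellular matrix and integrin genes 1 was higher in AC and 4 were higher in VG, beside 6.05% and 8.89% of all tested genes. Of 45 cytoskeleton and polarity genes 5 were higher in AC, 3 were higher in VG and 37 were not called. Over all tested genes 14.9% were called in either direction, a share near that of this list. The actin-binding gene cnn2, with 707 and 664 TPM in AC and 63.8 and 79.9 TPM in VG (log2 fold change 3.34 ± 0.29, adjusted p = 0.000829), was higher in AC.

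Cell cycle genes were called in both directions within single families. Of 54 tested, 10 were higher in AC and 5 higher in VG, beside 6.05% and 8.89% of all tested genes. The VG share was near that over all genes, and the median log2 fold change was 0.21. The maternal cyclin ccnb1 had 1252 and 1363 TPM in VG and 156 and 251 TPM in AC (log2 fold change -2.62 ± 0.34, adjusted p = 0.00326), whereas ccnb2 had 710.4 and 895 TPM in AC and 358 and 379 TPM in VG (log2 fold change 1.19 ± 0.13, adjusted p = 0.00181). The inhibitory kinase wee2, which holds Cdk1 off, had 810.4 and 1074 TPM in VG and 125 and 263 TPM in AC (log2 fold change -2.22 ± 0.30, adjusted p = 0.00346) and the checkpoint kinase chek1 118 and 139.7 TPM in VG and 22.8 and 20.6 TPM in AC (log2 fold change -2.48 ± 0.19, adjusted p = 0.000464). The opposing phosphatase cdc25b had 105 and 151 TPM in AC and 3.85 and 11.3 TPM in VG (log2 fold change 4.17 ± 0.49, adjusted p = 0.00212), and the mitotic kinase aurka had 173 and 186 TPM in AC and 32.5 and 54.3 TPM in VG (log2 fold change 2.13 ± 0.22, adjusted p = 0.00149). These calls held without each library in turn.

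Genes of histone acetylation and deacetylation, the subject of the wider study, were nearly all not called. Of 47 tested, 1, the coactivator ncoa2, was called higher in AC (log2 fold change 2.14 ± 0.35, adjusted p = 0.0071), and none higher in VG. Among all tested genes 14.9% were called in either direction. The deacetylase hdac1 had 782 and 770.3 TPM in AC and 687 and 676 TPM in VG (log2 fold change 0.26 ± 0.12, adjusted p = 0.19) and hdac2 33.6 and 55.0 TPM in AC and 29.1 and 48.5 TPM in VG (log2 fold change 0.26 ± 0.29, adjusted p = 0.602). The acetyltransferase ep300 had 45.5 and 38.7 TPM in AC and 43.7 and 43.1 TPM in VG (log2 fold change 0.03 ± 0.16, adjusted p = 0.923) and the Sin3 scaffold sin3a 121 and 161 TPM in AC and 86.1 and 134 TPM in VG (log2 fold change 0.41 ± 0.22, adjusted p = 0.243). Fitted values were higher in AC for 36 of the 47 genes, and for 14 of 18 housekeeping genes. The median log2 fold change of the list was 0.39, and the 18 housekeeping genes had a median of 0.32. Of these, h3-3b and actb were called higher in AC and tbp, a general transcription factor, higher in VG (91.2 and 119.6 TPM in VG and 17.7 and 22.6 TPM in AC; log2 fold change -2.31 ± 0.47, adjusted p = 0.0163). The call of tbp was lost without AC replicate 1 (adjusted p = 0.108), AC replicate 2 (0.0799) or VG replicate 2 (0.0588), and that of actb without any 1 library (0.0947 and 0.0753 without AC replicates 1 and 2, 0.104 and 0.0729 without VG replicates 1 and 2).

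The 10 genes with the largest fitted fold changes in VG (symbol other than a LOC number and at least 5 TPM there) were anpep, frzb, bix1.1, nodal5, uncx, mertk, slc3a1, nodal2, nodal and cer1. For genes with few or no counts in AC the fitted value depends on the prior count, so this order is not one of measured folds. The log2 fold changes of mixer and pgat, with 56 and 51 AC counts, were -10.52 and -10.62. The aminopeptidase anpep had no count in AC and 4293 in VG (49.9 and 39.7 TPM in VG and 0 and 0 TPM in AC), at least 1346-fold higher in VG (adjusted p = 0.000225). The homeobox gene uncx and the amino acid transporter subunit slc3a1 were also at 0 in AC, at least 369.9-fold and at least 244-fold higher in VG, as was the receptor kinase mertk (at least 255-fold). In AC the same rule gave foxi1, st6gal1, mid1ip1, p2ry2, abo.3, krt70, rbbp8nl, astl2d.2, degs3 and s1pr5. The nucleotide receptor p2ry2 had 39.4 and 52.1 TPM in AC and 0.19 and 0.09 TPM in VG (log2 fold change 8.40 ± 0.61, adjusted p = 0.000428) and the sphingolipid receptor s1pr5 85.8 and 91.4 TPM in AC and 0.6 and 0.52 TPM in VG (log2 fold change 7.38 ± 0.92, adjusted p = 0.00265). The sialyltransferase st6gal1 rested on AC replicate 1 (13.8 and 1.48 TPM in AC and 0.07 and 0 TPM in VG). Its adjusted p was 0.127 without that library and 0.135 and 0.149 without VG replicates 1 and 2, and the protease gene astl2d.2 lost its call without any 1 library (adjusted p of 0.167 and 0.0842 without AC replicates 1 and 2, 0.193 and 0.136 without VG replicates 1 and 2).

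Ordered by level, the called genes of AC gave other names. The 10 most abundant were eef1a1o, srsf2, srsf5, srsf7, fus, h3-3b, srsf1, pou5f3.2, hnrnpu and ptma, among them 4 serine and arginine rich splicing factors and 2 further RNA-binding proteins (fus and hnrnpu). The elongation factor eef1a1o had 7605 and 5855 TPM in AC and 2315 and 1713 TPM in VG (log2 fold change 1.81 ± 0.27, adjusted p = 0.00522). The splicing factor srsf2 had 5506 and 5180.0 TPM in AC and 2227 and 2244 TPM in VG (log2 fold change 1.35 ± 0.13, adjusted p = 0.00122) and fus 2392 and 2390.1 TPM in AC and 1071 and 1068 TPM in VG (log2 fold change 1.23 ± 0.13, adjusted p = 0.00163). The pluripotency factor pou5f3.2, an Oct4 relative, had 1925 and 1619 TPM in AC and 662 and 651 TPM in VG (log2 fold change 1.51 ± 0.21, adjusted p = 0.00367). The 10 genes differed between 2- and 4-fold. The splicing factor srsf5 had 3337 and 3690.1 TPM in AC and 1479 and 1871 TPM in VG (log2 fold change 1.14 ± 0.24, adjusted p = 0.0187) and srsf7 3193 and 2605 TPM in AC and 1059 and 574 TPM in VG (log2 fold change 1.89 ± 0.37, adjusted p = 0.0134). At lower levels srsf1 had 2373 and 1706 TPM in AC and 968 and 816 TPM in VG (log2 fold change 1.27 ± 0.22, adjusted p = 0.00953), hnrnpu 1866 and 1608 TPM in AC and 870.1 and 816 TPM in VG (log2 fold change 1.12 ± 0.17, adjusted p = 0.00566) and the prothymosin gene ptma 1742 and 1422 TPM in AC and 802 and 800.5 TPM in VG (log2 fold change 1.05 ± 0.17, adjusted p = 0.00759). Without AC replicate 1, srsf7 had an adjusted p of 0.0765, and srsf1, hnrnpu and ptma had log2 fold changes of 0.93, 0.93 and 0.82; without VG replicate 2, srsf1 had an adjusted p of 0.052 and ptma a log2 fold change of 0.99. The call of srsf5 was lost without any 1 library (adjusted p of 0.0876 and 0.0794 without AC replicates 1 and 2, 0.102 and 0.0574 without VG replicates 1 and 2). The most abundant called genes of VG were LOC100487364, mixer, rtn3, sox17a, ccnb1, LOC733561, h1-8, smagp, dazl and plin2. The first had 4570.1 and 4159 TPM in VG and 80.1 and 78.43 TPM in AC (log2 fold change -5.71 ± 0.20, adjusted p = 6.26e-05) and lies on chromosome 8. The oocyte linker histone h1-8 had 1421 and 1123 TPM in VG and 281 and 308 TPM in AC (log2 fold change -2.05 ± 0.25, adjusted p = 0.00237), and the lipid droplet protein plin2 1057 and 1176 TPM in VG and 215 and 222 TPM in AC (log2 fold change -2.28 ± 0.13, adjusted p = 0.000246).

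Some of the values above cannot be assigned to a single gene with full certainty. The library kit and counting are not stated to use strand, and the annotated spans of admp, bmp2, bmp7.2, cnn2, flrt3, gata5, gdf1, grip2, h3-3b, kif4a, mib1, rbbp8nl, s1pr5 and zic2 overlap another gene or a microRNA. Reads of such pairs may be counted for either gene. Besides the genes already given, abo.3, cnn2, h3-3b, kif4a, p2ry2, wnt11b and zic2 had fractional counts.

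Histone acetylation near these genes was taken from peak lists of the same tissues in the DMSO controls of another experiment. The antibody recognises acetylated forms of histone H3 (pan-H3Kac), and the authors kept the peaks found in both replicates, 24212 in AC and 24535 in VG. A gene was assigned a tissue's peak when a summit lay within its span or 10 kb to either side. Of the 15134 tested genes placed on a chromosome, 13.3% had an AC peak and no VG peak and 8.79% a VG peak and no AC peak. Among genes called higher in AC these shares were 21.2% (194 of 917, Wilson 95% interval 18.6 to 23.9%) and 3.05%. Among genes called higher in VG they were 9.29% and 21.2% (285 of 1346, 19.1 to 23.4%). The intervals take genes as independent, which neighbouring genes are not, and the lists carry no replicate values, so no test was made.

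Shares with a peak of the higher tissue alone were larger among genes with larger differences. Of 275 genes more than 8-fold higher in AC, 42.5% (36.8 to 48.5%) had an AC peak alone and 2.18% a VG peak alone. Of 505 genes more than 8-fold higher in VG, 39.8% (35.6 to 44.1%) had a VG peak alone and 3.76% an AC peak alone. Of 642 genes 2- to 8-fold higher in AC, 12% (9.70 to 14.7%) had an AC peak alone and 3.43% a VG peak alone. Of 841 genes 2- to 8-fold higher in VG, 9.99% (8.14 to 12.2%) had a VG peak alone and 12.6% (10.53 to 15.02%) an AC peak alone. Among genes not called, 13.2% had an AC peak alone and 7.91% a VG peak alone. Peaks of both tissues were found at 76.0% of genes 2- to 8-fold higher in AC and at 45.8% of those more than 8-fold higher. A total of 25.1% of the genes more than 8-fold higher in VG had neither peak, beside 9.45% in AC and 17.3% of genes not called.

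**Figure D5:**
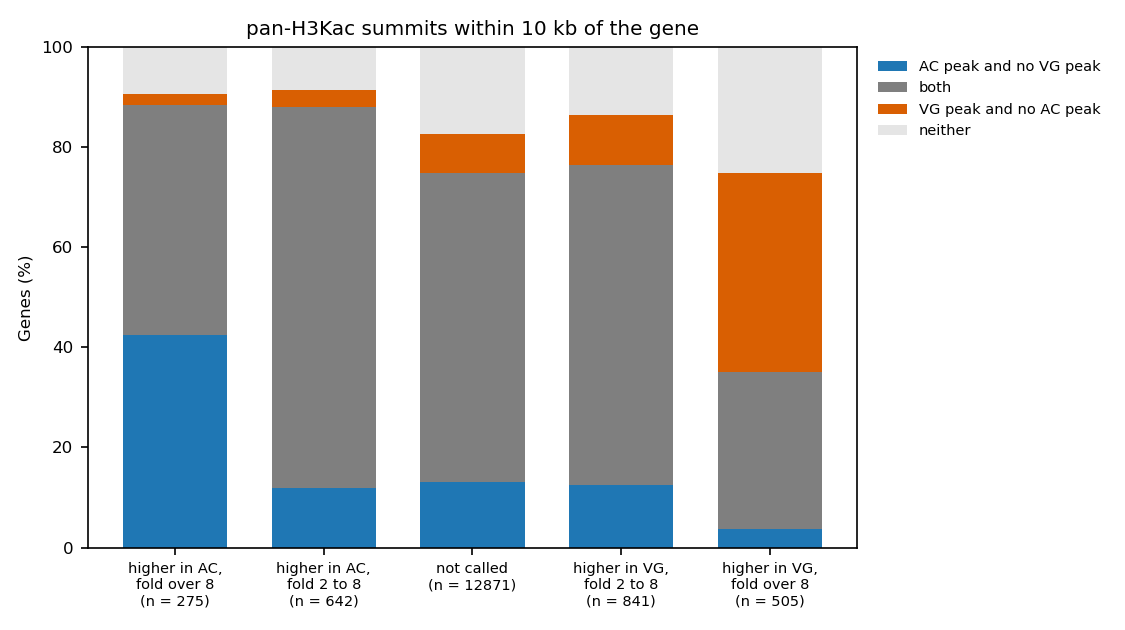
Share of genes (y axis, %) with a pan-H3Kac summit within 10 kb in AC only, in both tissues, in VG only or in neither, for genes called higher in AC or VG by size of the fold change and for genes not called. Peaks of a single tissue are most frequent for differences over 8-fold (42.5% AC alone in AC genes, 39.8% VG alone in VG genes).

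Peaks were then counted near the gene groups. Over all placed genes 74.3% had an AC peak, 69.8% a VG peak, 61.0% both and 16.9% neither. Of the 32 endoderm regulators higher in VG, 28 had a VG peak and 5 an AC peak, and 4 had neither. Of the 16 germ plasm genes higher in VG, 6 had a VG peak and 5 an AC peak, and 9 had neither; dazl, pgat, grip2, germes, dnd1, velo1 and mov10 were among the 9. The 20 ectoderm regulators higher in AC included 19 with an AC peak and 11 with a VG peak. The 8 ectoderm regulators higher in VG included 6 with a peak in each tissue, a share near those over all placed genes. Within 10 kb of sox17a, gata4 and mixer there were 4, 11 and 9 VG summits and no AC summit. The reverse was seen at grhl3, tp63 and sox2, with 6, 11 and 6 AC summits and no VG summit. Such matches were not found at every called gene. Of all genes called higher in VG, 125 of 1346 had an AC peak alone, among them LOC100487364 and rtn3 with 4 and 2 AC summits. Of those called higher in AC, 28 of 917 had a VG peak alone.

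Peaks of the deacetylase Hdac1 itself, called in whole embryos at st10.5, lay within 10 kb of 84.7% (82.3 to 86.9%) of the genes higher in AC, of 67.9% (65.4 to 70.3%) of those higher in VG and of 70.6% of all placed genes. In whole embryos a peak cannot be assigned to a tissue. Among the endoderm regulators higher in VG 26 of 32 had an Hdac1 summit, among the ectoderm regulators higher in AC 19 of 20, and among the germ plasm genes higher in VG 6 of 16.

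The same tissues were sequenced in the DMSO controls of the experiment with the inhibitor trichostatin A. The DMSO libraries were fitted together with the libraries treated with trichostatin A, which also entered the filter, normalization and estimate of spread. In that fit 3311 of 15232 genes (21.7%) were called, 1473 (9.67%) higher in AC and 1838 (12.1%) higher in VG. Of the AC genes of water tested in both experiments, 683 of 907 (75.3%) were called higher in AC in DMSO, which is 48.0% of the 1423 AC genes of DMSO. For VG the numbers were 985 of 1322 (74.5%) and 54.4% of 1812. No gene was called higher in AC in water and higher in VG in DMSO, and 1, ahnak, which encodes a large scaffold protein, went the other way. It was named after its values were seen, and its levels in the water libraries were 24.3 and 16.6 TPM in AC and 72.3 and 40.8 TPM in VG. One library of the AC DMSO group had 35.0% of its counts in ribosomal RNA genes, beside 0.730% to 1.60% in the other 3, and TPM values are computed with those genes in the total. Replicate 2 of AC with trichostatin A, also in that fit, had 39.4%.

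A direct test of the difference between the experiments called 5 of 16052 genes (0.0311%), 4 more towards AC in water (0.0249%) and 1 more towards VG (0.00623%), by edgeR with Benjamini-Hochberg adjustment. With a symbol there was 1 of them, tmem19, a transmembrane protein gene, with 6.60 and 7.17 TPM in AC and 18.2 and 19.3 TPM in VG in water and 8.81 and 5.98 TPM in AC and 85.9 and 109 TPM in VG in DMSO. Its log2 fold change of AC over VG was -1.52 ± 0.20 in water and -3.62 ± 0.22 in DMSO, and the difference of 2.05 ± 0.27 had an adjusted p of 0.0279. The other 4 are protein-coding LOC genes and were named after their values were seen. For LOC116406438 the levels were 110.4 and 112 TPM in AC and 86.6 and 94.8 TPM in VG in water and 0 and 0 TPM in AC and 36.4 and 77.5 TPM in VG in DMSO, so it was listed at 0 in AC in 1 experiment only. Solvent and experiment cannot be told apart in this test. Of the 16052 genes, 1281 had an unadjusted p under 0.05 in this edgeR test, which is not a call as defined above. Without each of the 4 water libraries in turn edgeR called 0 genes (from 992 to 1194 at an unadjusted p under 0.05), and it called 0 in the 8 control libraries alone (1037), while DESeq2 called 155 in all 16 libraries.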

How the data were processed

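RNA-seq libraries of AC and VG explants were aligned by the authors with STAR 2.7.3a to the v10.0 assembly and quantified with RSEM 1.3.3, which apportions reads that match several genes. The deposited files give expected counts, not normalized, and TPM, computed by the authors per effective length. Peak lists were deposited with the MACS2 fold enrichment over input, which was not used here, and the −log10 q of each peak, which was used in 1 alternative; reads were mapped with Bowtie2 2.4.4. Names and versions are from the submitters' processing notes and the study's methods. Hdac1 peaks were kept by the authors at an IDR of 0.05, and pan-H3Kac peaks where both replicates had them after downsampling of the second replicates.

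Expected counts were rounded and tested with edgeR 4.0.16 (R 4.3.3): TMM, filterByExpr and glmQLFTest over the 8 libraries of the water and VPA experiment, with group means and Benjamini-Hochberg adjustment. The DMSO controls were compared in a fit over the DMSO and trichostatin A libraries. The difference between water and DMSO was tested in all 16 libraries. Gene symbols came from RefSeq for 26531 of 28850 genes. Named genes were the called members of the lists, the members of the ectoderm, endoderm and organizer lists not called, the 10 called genes per tissue with the largest fold change (at least 5 TPM) and with the highest level, and genes called in the test between experiments; ahnak and the LOC genes of that test were added after their values were seen, and some list members are counted but not reported here by name. Members and lists were chosen with earlier results of these data known. The study's methods call the replicates biological and independent, and nothing in the sources states whether they share a clutch. The p-values therefore measure the spread between these samples, pooled in the main fits over all their libraries, inhibitor-treated ones included. No column of unassigned samples was found. Alternatives used other normalizations and filters, DESeq2 1.42.0, limma 3.58.1 on log2(TPM + 1) and log2(TPM + 0.1), other sets of libraries, a replicate block and omission of each replicate.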

Additional observations from a re-analysis of the deposited data

Results flagged for a closer look

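The difference between AC and VG itself differed between the water and the DMSO controls for 5 genes by edgeR's quasi-likelihood test with Benjamini-Hochberg adjustment over 16052 genes. For tmem19 the adjusted p was 0.0279, and both VG libraries exceeded both AC libraries in each experiment. LOC100494196 (adjusted p = 0.0378) had 6.34 and 7.98 TPM in AC and 3.01 and 6.63 TPM in VG in water and 0 and 0.03 TPM in AC and 9.28 and 6.71 TPM in VG in DMSO. LOC101733091 (adjusted p = 0.0231) had 10.8 and 15.8 TPM in AC and 5.67 and 7.21 TPM in VG in water and 33.8 and 57.3 TPM in AC and 0 and 0 TPM in VG in DMSO. LOC101733199 (adjusted p = 0.0231) had 9.1 and 9.13 TPM in AC and 5.81 and 8.43 TPM in VG in water and 0 and 0 TPM in AC and 5.05 and 8.08 TPM in VG in DMSO. LOC116406438 (adjusted p = 0.0231) had 110.4 and 112 TPM in AC and 86.6 and 94.8 TPM in VG in water and 0 and 0 TPM in AC and 36.4 and 77.5 TPM in VG in DMSO, and its counts were partly fractional. In each of the 4 LOC genes 1 tissue of the DMSO experiment was at or near 0 in both libraries, while no water library was. In the fits without 1 of the water libraries none of the 5 was called.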

How the results depend on the processing

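The 2266 calls between AC and VG numbered 1173 to 1657 when single water libraries were left out and 1234 at an adjusted p under 0.01. They lay between 1811 and 3129 under the other alternatives, from at least 10 counts in every water library to no threshold on fold, with 2629 by DESeq2, 2098 in the 4 water libraries and 2003 by limma on log2(TPM + 1). With the replicate number as a block (replicate block, paired by number) there were 2970 calls in 8 libraries and 3077 in the 4 water libraries; deviations of same-numbered AC and VG water libraries correlated at r = 0.577 across 15166 genes, and nothing states what a number marks. The 5 calls of the test between experiments became 48 with the block, 155 by DESeq2, 13 with no filter, 0 in the 8 control libraries and 0 without any single water library; the cause was not tested. At 50 kb, AC peaks alone lay near 8.83% of AC genes and 6.72% of all placed genes. VG peaks alone lay near 11.6% of VG genes and 5.33% of all placed genes. Hdac1 summits lay near 82.0% of AC genes and 63.4% of VG genes at 5 kb and near 93.3% and 84.7% at 50 kb. Over all placed genes the Hdac1 shares were 66.1% at 5 kb and 87.2% at 50 kb, so the VG share lay below both.

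Of the 166 called genes named here, 40 lost the call without at least 1 water library (33 without AC replicate 1). Outside the omission of libraries, limma on TPM took bsx, dsp, krt18.3, krt54, ovol1, ptma and st6gal1 off the calls under 1 or both pseudocounts and the fit of the 4 water libraries took off fgf8, while klf17 was called with the replicate block (adjusted p = 0.00143 in 8 libraries and 0.000119 in the 4 water libraries), by DESeq2, with no filter and in all 16 libraries, pou3f1 and LOC101733091 with the block, and zic2 by limma on TPM and without AC or VG replicate 2. No named gene reversed. Named genes were chosen by list, level or fold change, and among all calls a larger share was lost when single libraries were left out. Their stability therefore does not stand for that of all calls. Counting depth limits genes with 3 or fewer counts in a tissue, for several of which ratios or bounds were given, and 2 libraries per tissue limit every test.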

Other observations

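Other gene families were counted in the same fit, in which 6.05% of all tested genes were called higher in AC and 8.89% higher in VG. Of 14 tested T-box genes 6 were higher in VG and none higher in AC. Besides vegt, tbxt and eomes these included tbx2 (81.0 and 54.4 TPM in VG and 0.8 and 3.47 TPM in AC; edgeR log2 fold change -4.95 ± 0.68, adjusted p = 0.00369) and tbx3 (38.9 and 17.7 TPM in VG and 0.22 and 1.48 TPM in AC; log2 fold change -5.04 ± 0.83, adjusted p = 0.0077), repressors with roles in many organs. Of 13 tested keratins 3 were higher in AC and 2 higher in VG. The keratin of simple epithelia krt7 had 1325 and 1020.0 TPM in AC and 27.6 and 15.0 TPM in VG (log2 fold change 5.85 ± 0.57, adjusted p = 0.00118), next to krt70. The other calls, krt18.3 in AC (adjusted p = 0.0486) and krt54 and krt78.4 in VG (0.0448 and 0.0205), were at or below 3.12 TPM in every water library. The calls of krt18.3, krt54 and krt78.4 were lost without AC replicate 1, without AC replicate 2 or without VG replicate 1. Those of krt18.3 and krt54 were also lost without VG replicate 2. Of 87 tested genes with a ribosomal protein symbol 85 were not called, and the calls were the kinases rps6ka3 and rps6kc1. Of 254 tested solute carriers 22 were higher in AC and 29 higher in VG, beside 6.05% and 8.89% of all genes.

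Tubulins were called in both directions. The neuronal-type beta tubulin tubb3 had 10.1 and 17.2 TPM in VG and 0.35 and 0.83 TPM in AC (log2 fold change -4.44 ± 0.63, adjusted p = 0.00433), while the abundant tubb had 460.4 and 332 TPM in AC and 178 and 123 TPM in VG (log2 fold change 1.47 ± 0.27, adjusted p = 0.0118; adjusted p = 0.0689 without AC replicate 1). Of 27 tested Hox genes 3 were called, all higher in VG, a share near the 8.89% of all tested genes. Hox levels were low, with the list summing to 19.7 and 23.3 TPM in AC and 30.7 and 45.9 TPM in VG.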
